A study of Mus musculus with 12 samples.

Results

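Aldehyde dehydrogenases oxidise aldehydes to acids, and several of them serve to tell stem and progenitor cells from their differentiated neighbours. Expression of 7 such genes (Aldh1a1, Aldh1a2, Aldh1a3, Aldh1a7, Aldh1b1, Aldh2 and Aldh3a1) was followed across 3 kinds of mouse pancreatic material. The genes were chosen by name, and every probe set whose only gene symbol on the array platform was one of them was taken. This gave 13 probe sets of 45101 on the array, for 7 genes of 18193, and 13 of 13 passed the filter on low values (above the 30th percentile of the array on at least 4 of the 12 arrays).

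Total RNA was hybridised to 1 Affymetrix array per sample, with 4 arrays, lettered A to D, in each of 3 groups. yDucts were organoids derived from acini of R26-rtTA; tetO-YAP S127A mice, in which doxycycline had switched on an activated form of YAP, the effector of the Hippo pathway, and were then grown without doxycycline. Ducts were organoids grown from native pancreatic duct fragments, and Acini, which make and secrete the digestive enzymes, were freshly isolated and not cultured. The comparisons ask how the gene expression of yDucts and Ducts differed from that of acini, and how yDucts differed from Ducts. Both kinds of organoid were kept in Matrigel under the same medium, so culture and cell identity cannot be told apart in a comparison with Acini. The rtTA is driven from the Rosa26 locus, which is active in most cell types and not in acinar cells alone. Per the methods acini came from mice aged 6 to 9 weeks. The arrays of a group are titled as biological replicas, without saying whether each was a separate animal, and the labels give no genotype for the mice behind the Acini and Ducts arrays. A p-value here therefore reflects how much the arrays of a group varied.

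The ALDH1A enzymes take the last step in making retinoic acid, the ligand of the RAR nuclear receptors: alcohol dehydrogenases and retinol dehydrogenases first turn retinol into retinal, ALDH1A enzymes oxidise retinal, and CYP26 enzymes break retinoic acid down. In the mouse pancreas, high ALDH1 activity has been used to enrich centroacinar and terminal duct cells, and Aldh1b1 marks progenitors in the embryonic pancreas and rare cells of the adult organ. Aldh2 and Aldh3a1 act mainly on other aldehydes, such as acetaldehyde and the products of lipid peroxidation.

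Values are log2 expression and are given in the order of arrays A to D. They are relative to the other probe sets of the same array, and levels of different probe sets are not compared. The 30th percentile of the arrays, taken here as the limit of the low range, lay at 3.20 ± 0.01 in yDucts, 3.21 ± 0.02 in Ducts and 3.72 ± 0.06 in Acini (SD, n = 4 each). The low range was thus higher on the Acini arrays, and the 3′ minus 5′ difference of the Gapdh control probe sets was -0.15 ± 0.02 in yDucts, -0.04 ± 0.04 in Ducts and 1.53 ± 0.29 in Acini. The Ducts arrays fell into A with B and C with D. The root mean square difference over all tested probe sets was 0.53 between A and B and 0.27 between C and D, but 0.64 to 0.80 across these pairs, while any 2 yDucts arrays differed by 0.20 to 0.39. Ducts B was more than 1 log2 unit above every other Ducts array at 611 of the 33436 tested probe sets (1.83%) and at 4 of the 13 probe sets described here, those of Aldh1a1, Aldh1a7, Aldh3a1 and 1 of Aldh1a3. The values without Ducts B are therefore given wherever they change a call of these 13.

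The Acini held RNA of many other cells. Averaged over the list, stromal markers such as Col1a1 and Pdgfra reached 3.27 to 3.38 on the yDucts arrays, 3.17 to 3.42 on the Ducts arrays and 6.84 to 7.55 on the Acini arrays, and 6 of 6 were above the low range on every Acini array. Mesothelial markers averaged 3.20 to 3.37 in yDucts, 2.89 to 3.58 in Ducts and 5.08 to 5.28 in Acini. Of these 5 markers, 3 to 4 were above the low range on each Acini array. Endocrine markers such as Ins2 averaged 3.76 to 3.87 in yDucts, 3.74 to 3.85 in Ducts and 7.60 to 8.55 in Acini. Endothelial markers averaged 3.42 to 3.61 in yDucts, 3.48 to 3.72 in Ducts and 6.50 to 7.11 in Acini. Acinar markers averaged 3.29 to 3.47 in yDucts, 3.24 to 3.40 in Ducts and 12.33 to 12.48 in Acini. Duct markers, at 10.32 to 10.56 in yDucts and 10.60 to 11.55 in Ducts, stood at 7.35 to 7.87 in Acini, so on average the acinar and duct lists followed the labels. Sox9 of the duct list did not, with 6.60 to 7.20 in yDucts, 6.41 to 8.30 in Ducts and 6.11 to 7.12 in Acini. In such bulk RNA, fewer cells of a type and less RNA per cell cannot be told apart, and the part that other cell types had in the results against Acini was not tested.

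Against Acini, the 7 genes did not move one way. Aldh1a1 and Aldh1a7 were lower in yDucts and in Ducts, Aldh2 and Aldh3a1 were higher in both, and Aldh1a3 was higher in yDucts, while Aldh1b1 stayed at the low range throughout. In yDucts against Acini, 7 of the 13 probe sets were called higher, 3 lower and 3 were not called (limma, Benjamini-Hochberg adjusted p under 0.05). Among all 33436 tested probe sets, 71.3% were called, 39.7% as higher and 31.6% as lower. In Ducts against Acini, 5 were called higher, 2 lower and 6 were not called, where 71.2% of all tested probe sets were called, 40% as higher and 31.2% as lower. The groups did not overlap at 10 of the 13 probe sets in yDucts against Acini and at 7 in Ducts against Acini, where 65.9% and 59.2% of all tested probe sets did not overlap. The members' shares were thus near those of the whole array. The median difference of the 13 was 0.83 in yDucts and -0.04 in Ducts, against 0.13 and 0.16 over all tested probe sets, and 5 of the 13 probe sets belong to Aldh2 alone.

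**Figure D1:**
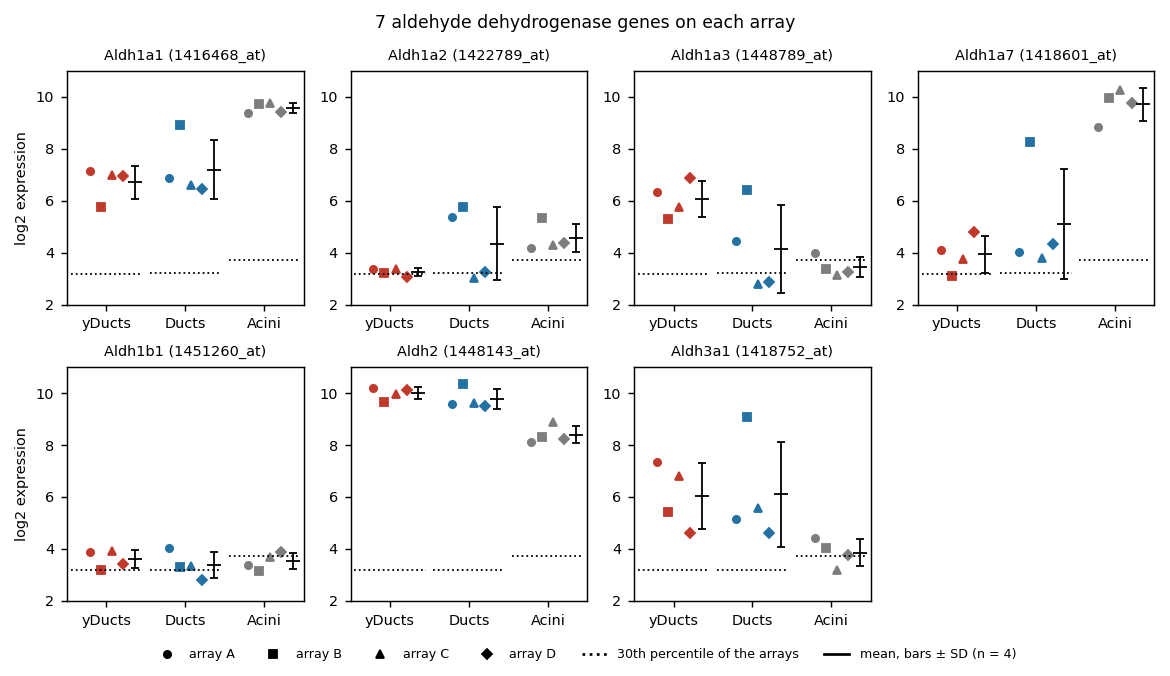
log2 expression (vertical axis) of the probe set with the highest mean of each of the 7 genes on the 12 arrays, in yDucts (red), Ducts (blue) and Acini (grey). Each symbol is 1 array, by letter, black bars are the mean ± SD of 4 arrays, and dotted lines mark the mean 30th percentile of the group's arrays. Aldh1a1 and Aldh1a7 are highest in Acini, Aldh2 is lowest in Acini, and Ducts B (blue square) lies above the other Ducts arrays for Aldh1a1, Aldh1a3, Aldh1a7 and Aldh3a1.

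Aldh1a1 (probe set 1416468_at), which encodes the cytosolic retinal dehydrogenase behind much of the ALDH activity used to sort progenitors, was highest in the freshly isolated tissue. It read 7.12, 5.77, 7.0 and 6.95 in yDucts, 6.86, 8.90, 6.59 and 6.43 in Ducts, and 9.37, 9.70, 9.75 and 9.40 in Acini. The 8 organoid arrays all lay below the 4 Acini arrays, with Ducts B nearest to them and yDucts B lowest. The difference was -2.85 ± 0.46 (SE) in yDucts, or 7.19-fold lower (limma adjusted p = 0.000105), and -2.36 ± 0.46 in Ducts, or 5.13-fold lower (adjusted p = 0.000488). yDucts and Ducts overlapped, and their difference of -0.49 (95% interval -1.48 to 0.51) was not called (adjusted p = 0.803).

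Aldh1a7 (probe set 1418601_at), a rodent paralogue of Aldh1a1, had the widest range of the 7 genes. It read 4.11, 3.09, 3.74 and 4.81 in yDucts, 4.01, 8.24, 3.81 and 4.33 in Ducts, and 8.82, 9.96, 10.27 and 9.77 in Acini. On 7 of the 8 organoid arrays the gene lay between 3.09 and 4.81, and the remaining array, Ducts B, came close to the lowest Acini array without reaching it. Aldh1a7 was 54.5-fold lower in yDucts (difference -5.77 ± 0.79, adjusted p = 2.31e-05) and 24.4-fold lower in Ducts (-4.61 ± 0.79, adjusted p = 0.000163) than in Acini. Without Ducts B the difference between Ducts and Acini widened to -5.66. Between yDucts and Ducts the difference was -1.16 (95% interval -2.86 to 0.54, adjusted p = 0.635), and without Ducts B it was -0.11.

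Both genes lie on chromosome 19 of the mouse genome (GRCm38.p6, RefSeq), Aldh1a1 at chr19:20492583-20643463 and Aldh1a7 at chr19:20692953-20727556, with 49489 bases between them. They are close paralogues, and whether the 2 probe sets pick up each other's transcript was not tested. Because they moved together against Acini, the 300 bases around a RefSeq start site of each, 250 before it and 50 after it, are shown 5′ to 3′ on the strand of the gene. Of the Aldh1a1 windows, the one sharing the longest run with the Aldh1a7 window was taken, so this choice favoured a long run. Capitals mark the longest run that the 2 windows share. The Aldh1a1 window is chr19:20601718-20602017 on the plus strand and the Aldh1a7 window is chr19:20727507-20727806 on the minus strand.
Aldh1a1: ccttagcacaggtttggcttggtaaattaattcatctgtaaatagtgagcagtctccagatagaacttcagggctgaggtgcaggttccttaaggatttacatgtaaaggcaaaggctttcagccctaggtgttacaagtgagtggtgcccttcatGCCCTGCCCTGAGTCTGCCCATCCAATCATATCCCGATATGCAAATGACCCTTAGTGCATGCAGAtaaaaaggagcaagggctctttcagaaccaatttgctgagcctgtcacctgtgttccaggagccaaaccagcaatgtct
Aldh1a7: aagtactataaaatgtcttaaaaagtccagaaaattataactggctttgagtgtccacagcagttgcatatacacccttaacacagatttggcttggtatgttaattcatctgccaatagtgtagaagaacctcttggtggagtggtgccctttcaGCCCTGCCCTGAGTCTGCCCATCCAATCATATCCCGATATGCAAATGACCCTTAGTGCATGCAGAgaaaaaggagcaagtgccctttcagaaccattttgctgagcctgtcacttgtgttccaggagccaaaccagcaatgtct
The shared run is 65 bases long and lies 94 to 30 bases before the start in both genes. Over the last 150 bases of the windows, 142 positions were identical (94.7%). The run holds a CCAAT box (letters CCAAT, both strands searched, found in 37.4% of 32817 promoter windows of this length) and, 56 bases before each start, the octamer ATGCAAAT, which POU-domain factors bind and which 570 of the 32817 windows hold (1.74%, both strands searched, no overlap with the CCAAT box). The letters GGAATG, the core that TEAD factors, the DNA-binding partners of YAP, recognise, were in 14.7% of all windows and in neither of these. A second start of Aldh1a1 had them once, on the reverse strand 168 bases before the start. The window of that second start held neither the octamer nor the letters CCAAT, and the window of Aldh1b1 held no octamer. These matches describe the sequence only.

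Aldh1a2 (probe set 1422789_at, chr9:71215789-71296243) encodes the retinal dehydrogenase that makes most retinoic acid in the mouse embryo, where it is a mesenchymal and mesothelial gene. It read 3.36, 3.22, 3.37 and 3.07 in yDucts, all at the low range. The Ducts arrays split in pairs, with 5.35 and 5.74 on A and B and 3.03 and 3.25 on C and D, and the Acini arrays read 4.18, 5.34, 4.30 and 4.37. yDucts were below Acini without overlap (difference -1.29 ± 0.52, adjusted p = 0.0391, at least 2.39-fold with each array raised to its low range), a call that was lost when any one of Acini B, C or D or of the 4 yDucts arrays was left out, when arrays were centred on their medians (adjusted p = 0.0784) or quantile normalized (0.124), and under cyclic loess (0.235). The limma fit takes its spread from all arrays, and the SD was 1.40 in Ducts, against 0.14 in yDucts and 0.53 in Acini. With Ducts A and B left out, the same yDucts difference of -1.29 from Acini had an adjusted p of 0.00035. With Ducts C and D left out it had 0.000496. Ducts overlapped Acini (-0.21 ± 0.52, adjusted p = 0.735). This mean stands for neither pair of Ducts arrays: with C and D left out Ducts were above Acini by 1.0 (adjusted p = 0.0115), and with A and B left out they were below by 1.41 (-1.41, adjusted p = 0.001). yDucts were below Ducts by 1.09 (-1.09, 95% interval -2.21 to 0.04, adjusted p = 0.402), and by 2.29 (-2.29, adjusted p = 0.00257) with C and D left out.
The window of Aldh1a2, one of the 4 members with a window in the table used, also held the octamer, 84 bases before the start. Its surroundings at chr9:71215694-71215723 (plus strand) are shown for comparison with the run above, with the octamer in capitals.
Aldh1a2: cgcgcggccgtATGCAAATgtcctcctggg
All 6 stromal markers, but only 3 to 4 of the 5 mesothelial markers, were above the low range on each Acini array. The mesothelial marker Wt1 read 3.01 to 3.67 in Acini, below the low range of each array. The part of stromal and mesothelial cells in the Aldh1a2 level of Acini was not tested. On Ducts A and B, where Aldh1a2 read above 5, the stromal list averaged 3.34 and 3.32, within the 3.17 to 3.42 of the Ducts group, and the mesothelial list averaged 2.89 on A and 3.58 on B, the lowest and the highest of the group.

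Aldh1a3, the remaining retinal dehydrogenase of the ALDH1A group (chr7:66390892-66427477), had the largest difference between yDucts and Ducts of the 7 genes, although that difference was not called. Its brightest probe set, 1448789_at, read 6.32, 5.30, 5.77 and 6.88 in yDucts, 4.46, 6.39, 2.78 and 2.87 in Ducts, and 3.99, 3.36, 3.14 and 3.24 in Acini. All yDucts arrays were above all Acini arrays, while Ducts B lay among the yDucts arrays and Ducts C and D were below the low range. yDucts exceeded Acini by 2.64 ± 0.64, at least 4.92-fold because Acini averaged below their low range (adjusted p = 0.00237). Ducts did not pass against Acini (0.69 ± 0.64, adjusted p = 0.344), and the value followed the arrays used: -0.06 without Ducts B (adjusted p = 0.902), -0.61 without A and B (adjusted p = 0.165) and 1.99 without C and D (adjusted p = 0.00512).
Against Ducts, yDucts were higher by 1.94 at this probe set (95% interval 0.56 to 3.32), which was not called over the whole array (adjusted p = 0.168). Without Ducts B the difference was 2.70 (adjusted p = 0.00427), without Ducts A and B 3.24 (adjusted p = 0.000154, at least 2.86 once Ducts C and D are raised to their low range), and with array weights 3.01 (adjusted p = 0.000113). The weights were 0.48 and 0.36 for Ducts A and B and 3.66 and 1.69 for C and D. The weighted Ducts mean thus rested mainly on C and D, much as in the fit without A and B. The weighted fit called many more probe sets of the whole array in this comparison, 5482 higher and 6272 lower, against 524 and 253 without weights. Leaving out C and D instead, the difference was 0.64. The call on Aldh1a3 between the organoids thus turned on which Ducts arrays stood for the group.
A second probe set, 1417642_at, read 4.63, 4.35, 4.42 and 5.14 in yDucts, 3.71, 4.59, 3.17 and 2.79 in Ducts, and 3.56, 3.09, 3.81 and 4.0 in Acini. It gave the same order, with yDucts at least 1.75-fold above Acini (1.02 ± 0.34, adjusted p = 0.0156) and 1.07 above Ducts (95% interval 0.34 to 1.80, adjusted p = 0.146), and without Ducts B by 1.41 (adjusted p = 0.0132). The call against Acini was lost without Acini B (adjusted p = 0.0527) or yDucts D (0.0523). The third, 1427395_a_at, was between 3.10 and 4.69 on all 12 arrays and was not called in any comparison of the main fit. Without Ducts B it was lower in Ducts than in Acini (-0.75, adjusted p = 0.0251), as it was without Acini C (0.0468) or Ducts A and B (0.0224). It was called higher in yDucts than in Acini under cyclic loess (0.65, adjusted p = 0.0484). With array weights it was called higher in yDucts than in Ducts (0.91, adjusted p = 0.00368).

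Aldh1b1 (probe set 1451260_at, chr4:45799022-45804608) encodes a mitochondrial enzyme that accepts retinal as well as acetaldehyde, and it is the member most closely tied to pancreatic progenitors. It read 3.87, 3.20, 3.92 and 3.44 in yDucts, 4.02, 3.29, 3.35 and 2.81 in Ducts, and 3.40, 3.15, 3.70 and 3.87 in Acini. All 12 arrays were within 1 log2 unit of the low range and the groups overlapped in every comparison. The differences were 0.08 ± 0.26 in yDucts and -0.16 ± 0.26 in Ducts against Acini (adjusted p = 0.798 and 0.584), and 0.24 between yDucts and Ducts (95% interval -0.32 to 0.80, adjusted p = 0.848). Under cyclic loess yDucts were above Acini by 0.65 (adjusted p = 0.0431). At a signal this dim a change in Aldh1b1 might go undetected. The 4 centroacinar and progenitor markers read on the same arrays (Hes1, Sox9, Pdx1 and Nkx6-1) averaged 6.70 to 6.81 in yDucts, 6.61 to 7.28 in Ducts and 5.35 to 5.97 in Acini. Of these, Sox9 and Nkx6-1 overlapped between yDucts and Acini, Nkx6-1 with 3.66 to 3.97 in yDucts and 2.75 to 4.08 in Acini.

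Aldh2 (chr5:121566027-121593824), the mitochondrial enzyme that clears acetaldehyde, had 5 probe sets, 4 of them called higher in both organoids. The brightest, 1448143_at, read 10.18, 9.67, 9.97 and 10.12 in yDucts, 9.57, 10.33, 9.61 and 9.51 in Ducts, and 8.13, 8.32, 8.89 and 8.25 in Acini. All 8 organoid arrays exceeded all Acini arrays, and Ducts B again stood above the other Ducts arrays. The gain was 3.01-fold in yDucts (1.59 ± 0.22, adjusted p = 2.75e-05) and 2.56-fold in Ducts (1.36 ± 0.22, adjusted p = 0.000109). It shrank when the arrays were brought to one distribution: under cyclic loess it was 0.47 in yDucts (adjusted p = 0.0696) and 0.24 in Ducts (adjusted p = 0.346), and under quantile normalization it was 0.49 in Ducts (adjusted p = 0.0596).
The probe sets 1434987_at and 1434988_x_at showed wider gaps. 1434988_x_at read 8.34, 7.90, 7.92 and 8.14 in yDucts, 7.61, 8.36, 7.67 and 7.50 in Ducts, and 4.98, 4.91, 6.03 and 5.40 in Acini. It was 6.70-fold higher in yDucts (2.75 ± 0.26, adjusted p = 7.43e-07) and 5.48-fold higher in Ducts (2.46 ± 0.26, adjusted p = 2.09e-06), and it was called under every alternative run. 1434987_at was 5.88-fold higher in yDucts and 4.71-fold higher in Ducts, also under every alternative. An x_at probe set can hold probes that match other transcripts, which was not tested.
At 1437410_at the gains were smaller, 1.78-fold in yDucts (0.83 ± 0.19, adjusted p = 0.00159) and 2.21-fold in Ducts (1.15 ± 0.19, adjusted p = 0.000136), and the call in yDucts was lost after quantile normalization (adjusted p = 0.0573) and under cyclic loess (0.137). This was the only one of the 13 at which yDucts and Ducts did not overlap, with 5.86 to 6.04 in yDucts and 6.09 to 6.52 in Ducts (-0.31, adjusted p = 0.577), where 12% of all tested probe sets did not overlap. The dim 1457155_at was not called in any comparison of the main fit, but was called higher in yDucts than in Acini without Acini A (0.53, adjusted p = 0.0441). Between the organoids the 4 called probe sets of Aldh2 differed by -0.31 to 0.32, so that the probe sets did not share a direction. With array weights 3 of them were called higher in yDucts than in Ducts, by 0.41 to 0.48.

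**Figure D2:**
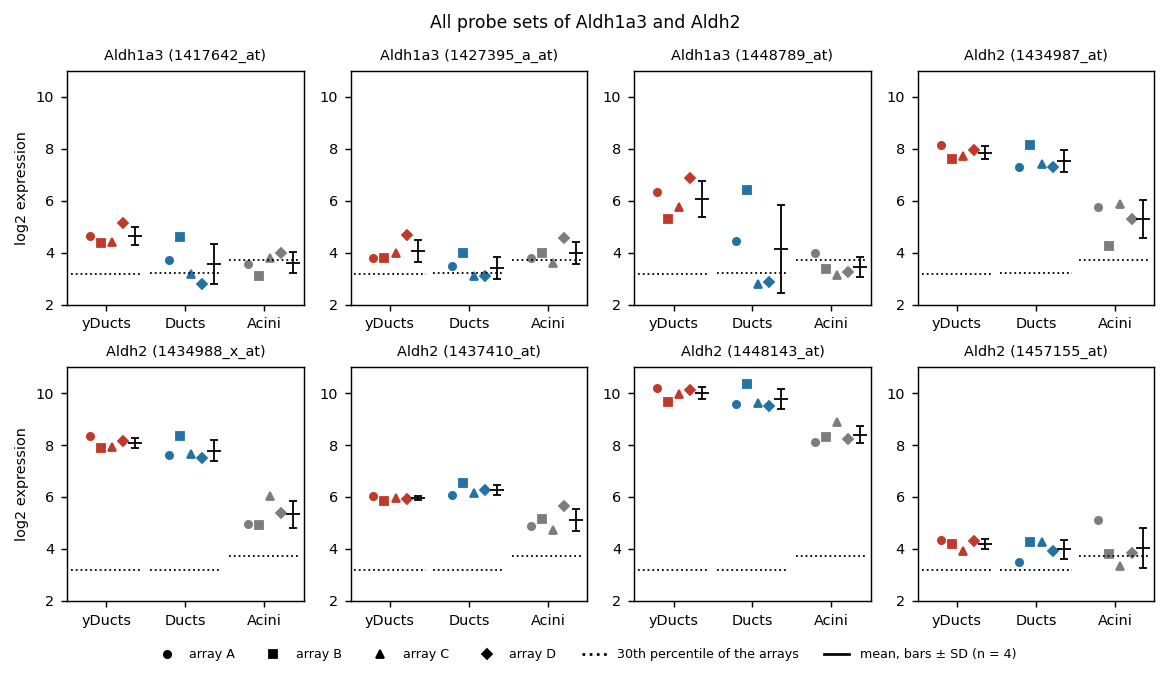
log2 expression (vertical axis) at all 3 probe sets of Aldh1a3 and all 5 of Aldh2 on the 12 arrays, drawn with the same symbols, bars and dotted lines for yDucts (red), Ducts (blue) and Acini (grey). yDucts lie above Acini at 2 of the 3 Aldh1a3 probe sets, and both organoids lie above Acini at 4 of the 5 Aldh2 probe sets.

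Aldh3a1 (probe set 1418752_at, chr11:61208510-61218418) encodes a cytosolic enzyme for medium-chain and aromatic aldehydes, abundant in the mouse cornea and stomach and inducible through the aryl hydrocarbon receptor. It read 7.36, 5.42, 6.81 and 4.60 in yDucts, 5.15, 9.08, 5.57 and 4.62 in Ducts, and 4.42, 4.04, 3.19 and 3.78 in Acini. Both organoid groups were above Acini without overlap, but each spanned several log2 units, from 4.60 to 7.36 in yDucts and from 4.62 to 9.08 in Ducts. The difference was 2.19 ± 0.83 in yDucts (4.56-fold, adjusted p = 0.03) and 2.25 ± 0.83 in Ducts (4.75-fold, adjusted p = 0.0268). Neither call was firm: without Ducts B the Ducts difference was 1.26 (adjusted p = 0.0551), and with array weights the adjusted p was 0.0564 in yDucts and 0.204 in Ducts. The yDucts call was also lost when yDucts A or C or Acini B, C or D was left out (adjusted p from 0.0512 to 0.0931), and the Ducts call without Acini C (0.0709) or D (0.0549). The limma fit takes its spread from all arrays, those of Ducts included. Without Ducts B the yDucts difference, still 2.19, had an adjusted p of 0.0018, and without Ducts C and D it had 0.0222. Between yDucts and Ducts the difference was -0.06 with a wide interval of -1.85 to 1.73 (adjusted p = 0.997).

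Between yDucts and Ducts, none of the 13 probe sets was called by limma (0 higher, 0 lower), where 2.32% of all tested probe sets were called, 1.57% as higher and 0.757% as lower. At an unadjusted p under 0.05 there were 3, the 3 probe sets of Aldh1a3, all higher in yDucts. They read the same gene on the same arrays, and the share of all tested probe sets under this limit was not counted. The intervals do not show that the organoids were alike, since the 95% interval of Aldh1a7 reached from -2.86 to 0.54 and that of Aldh3a1 from -1.85 to 1.73. Much of this width came with the Ducts arrays: the SD over Ducts arrays was larger than that over yDucts arrays at 12 of the 13 probe sets (92.3%), against 74.6% of all tested probe sets.

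**Figure D3:**
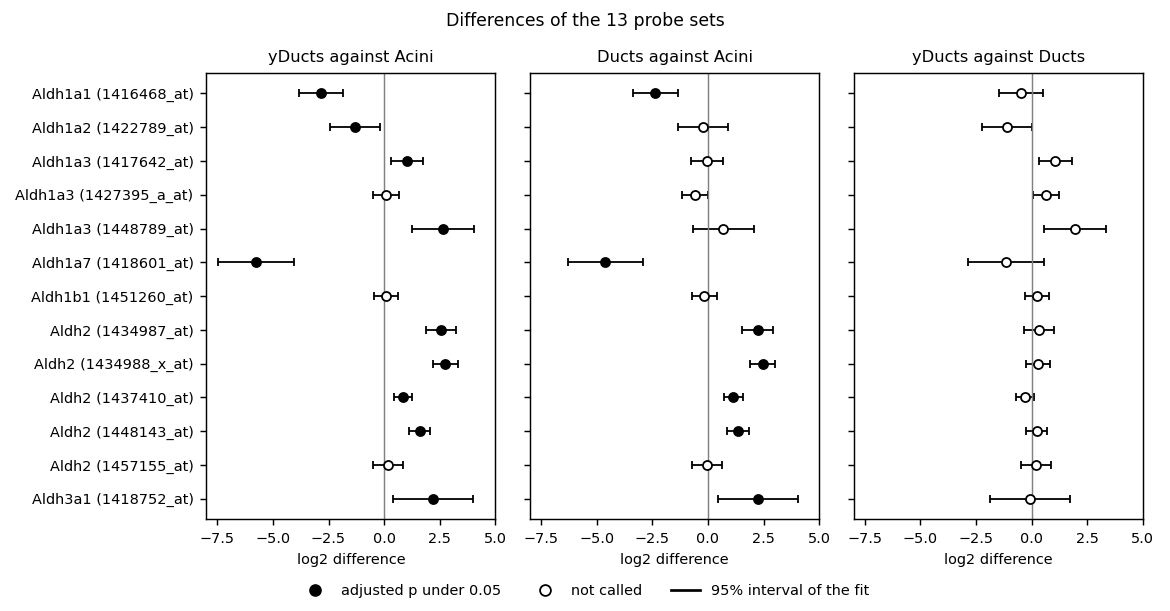
log2 difference (horizontal axis) of the 13 probe sets in yDucts against Acini, Ducts against Acini and yDucts against Ducts, with the 95% interval of the limma fit. Filled points passed an adjusted p under 0.05. Aldh1a7 shows the largest difference from Acini, -5.77 in yDucts and -4.61 in Ducts, and no point is filled in yDucts against Ducts.

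The rest of the aldehyde dehydrogenase family was mostly lower in the organoids. Of 13 further family genes, each taken at the probe set with the highest mean, 10 were called lower in yDucts against Acini, 1 higher and 2 were not called, and in Ducts against Acini 8 were called lower, 1 higher and 4 were not called. At this level of genes, 75.7% of the 14990 tested were called in yDucts, 43.4% as higher and 32.3% as lower, and 75.3% in Ducts, 42.4% as higher and 32.9% as lower. The median difference of the 13 was -1.03 in yDucts and -0.93 in Ducts, against 0.24 and 0.21 over all tested genes. Over the alternatives, 7 to 11 were lower in yDucts and 6 to 12 in Ducts.
Aldh1l1, the cytosolic 10-formyltetrahydrofolate dehydrogenase of folate metabolism, fell furthest. It read 4.21, 4.02, 3.78 and 3.49 in yDucts, 2.80, 3.82, 2.92 and 3.09 in Ducts, and 8.24, 7.72, 8.21 and 7.88 in Acini, which made it 17.6-fold lower in yDucts (adjusted p = 9.38e-09) and at least 25.1-fold lower in Ducts (adjusted p = 2.16e-09). Its mitochondrial counterpart Aldh1l2 was lower by 2.37 in yDucts (-2.37) and 1.31 in Ducts (-1.31). Aldh7a1, of lysine breakdown, changed by -1.73 in yDucts and -2.11 in Ducts, and Aldh6a1, of valine breakdown, by -1.23 in yDucts and -1.75 in Ducts. Aldh8a1 (-1.24 in yDucts, -1.14 in Ducts), Aldh3b2 (-1.30 in yDucts, -1.39 in Ducts), Aldh5a1 (-1.03 in yDucts, -0.93 in Ducts) and Aldh16a1 (-0.54 in yDucts, -0.52 in Ducts) were called lower in both as well, although in Ducts the call of Aldh16a1 was lost without Ducts A (adjusted p = 0.0636) or Ducts B (0.0576), with arrays centred on their medians (0.146) and with array weights (0.25), and that of Aldh5a1 without Ducts C and D. In yDucts the call of Aldh16a1 was lost with arrays centred on their medians (-0.32, adjusted p = 0.132). Aldh18a1 (-0.68) and Aldh4a1 (-0.58) passed in yDucts, and in the main fit not in Ducts. In Ducts, Aldh18a1 was called lower after quantile normalization (-0.81, adjusted p = 0.00633) and under cyclic loess (-1.17, adjusted p = 0.000229). Aldh4a1 was called lower in Ducts under the same scalings (-1.19 and -1.17, adjusted p = 0.00119 each). It also passed in Ducts without Ducts B (-0.61, adjusted p = 0.0455) and in further alternatives. In yDucts both calls were lost with arrays centred on their medians (adjusted p = 0.0688 and 0.189). That of Aldh4a1 in yDucts was also lost when Acini A, B or C or any yDucts array was left out (0.051 to 0.133). The single gene called higher, the fatty aldehyde dehydrogenase Aldh3a2 (0.72 in yDucts and 0.70 in Ducts), changed sign under quantile normalization and cyclic loess, and without Ducts B it was no longer called in Ducts (adjusted p = 0.0544). Aldh3b1 and Aldh9a1 were not called. Aldh3b1 was called higher in yDucts in 8 alternatives, among them the fit without Ducts B (0.74, adjusted p = 0.00889), and lower in Ducts after quantile normalization (-0.84, adjusted p = 0.0402) and under cyclic loess (-0.95, adjusted p = 0.0336), under which Aldh9a1 was lower in yDucts (-0.99, adjusted p = 0.00364) and in Ducts (-1.05, adjusted p = 0.00247).

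Upstream of the ALDH1A enzymes, the genes that handle retinol and retinal were changed in both directions. Of 21 genes for retinol transport, storage and oxidation, 17 were tested, and 6 were called higher and 7 lower in yDucts, and 6 higher and 6 lower in Ducts, against Acini. Over all tested genes, 43.4% were called higher and 32.3% lower in yDucts, and 42.4% higher and 32.9% lower in Ducts. Rdh10, which oxidises retinol to retinal and sets the pace of retinoic acid synthesis in the mouse embryo, read 11.74, 11.93, 11.61 and 11.65 in yDucts, 11.72, 12.91, 12.31 and 12.25 in Ducts, and 5.64, 6.19, 6.26 and 7.14 in Acini. This made it 43.0-fold higher in yDucts (adjusted p = 5.97e-09) and 63.6-fold higher in Ducts (adjusted p = 2.42e-09). Rdh11, a retinal reductase, was higher by 3.46 in yDucts and 3.54 in Ducts. Rbp4, the carrier of retinol in blood, was higher by 4.77 in yDucts and 3.56 in Ducts, Adh5 by 1.87 in yDucts and 1.81 in Ducts, Rdh14 by 1.66 in yDucts and 1.82 in Ducts, and Rdh13 by 1.04 in yDucts and 1.38 in Ducts, of which Rdh13 was no longer called after quantile normalization (adjusted p = 0.45 and 0.139). By contrast Adh1, a cytosolic alcohol dehydrogenase that also takes retinol, lay at the low range in both organoids and was at least 23.1-fold lower in yDucts and at least 24.7-fold lower in Ducts. Rbp7 was at least 4.90-fold lower in yDucts and at least 4.85-fold lower in Ducts, and Bco1 and Rdh12 were lower by more than 1 log2 unit in both, Rdh12 without a call in Ducts after quantile normalization (adjusted p = 0.0742) and in neither organoid under cyclic loess (0.0501 in yDucts and 0.105 in Ducts).

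Downstream, 13 of 15 genes for retinoic acid binding, receptors and breakdown were tested. In yDucts 1 was called higher and 5 lower, where 43.4% and 32.3% of all tested genes were called higher and lower. In Ducts 1 was called higher and 6 lower, where 42.4% and 32.9% of all tested genes were. The receptor gene Rxra was 2.56-fold lower in yDucts and 2.99-fold lower in Ducts (differences -1.36 and -1.58). Cyp26b1, which degrades retinoic acid, was 2.28-fold lower in yDucts and 2.44-fold lower in Ducts, and Rarres2, first found as a retinoid-responsive gene, was 2.31-fold lower in yDucts and 2.34-fold lower in Ducts, while Rxrg changed by -1.15 in yDucts. Rara, Rarb and Rarg were not called in either comparison. Tgm2, a transglutaminase induced by retinoic acid, was 4.64-fold higher in yDucts (adjusted p = 0.0159, but 0.126 after quantile normalization), and in Ducts it followed the split of the arrays, with 11.05 and 11.67 on A and B and 7.95 and 7.58 on C and D. None of the 13 other family genes, 17 retinol genes and 13 retinoic acid genes tested was called in yDucts against Ducts, where 2.89% of tested genes were called. Without Ducts B, Aldh1l1 (0.94, adjusted p = 0.0221), Aldh3b1 (1.25, adjusted p = 0.0114) and the retinol-binding Rbp2 (1.36, adjusted p = 0.0366) were called higher in yDucts than in Ducts, and Aldh1l2 (-1.30, adjusted p = 0.00861) and Aldh18a1 (-0.82, adjusted p = 0.0231) lower. On Ducts B, 9 of the 67 tested genes of the 5 lists were more than 1 log2 unit above every other Ducts array, against 1.83% of all tested probe sets. These shares are in unlike units, since a list gene was taken at its highest-mean probe set, and the share over all tested genes was not counted. The 9 genes are named because of their values on Ducts B: Cbr3, Stra6, Akr1b8, Cbr1, Dhrs3, Rbp2, Nqo1, Fabp5 and Aldh3b1. Stra6, the retinol uptake receptor, read 7.75 there and 4.48 to 5.19 on the other Ducts arrays. Others of the retinoic acid list were not high there, such as Rarb at 3.26, with 2.95 to 4.85 on the others, and Cyp26a1 at 3.38, with 3.19 to 3.52 on the others. Without Ducts B, Rbp2 was also called lower in Ducts than in Acini (-1.26, adjusted p = 0.00441).

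**Figure D4:**
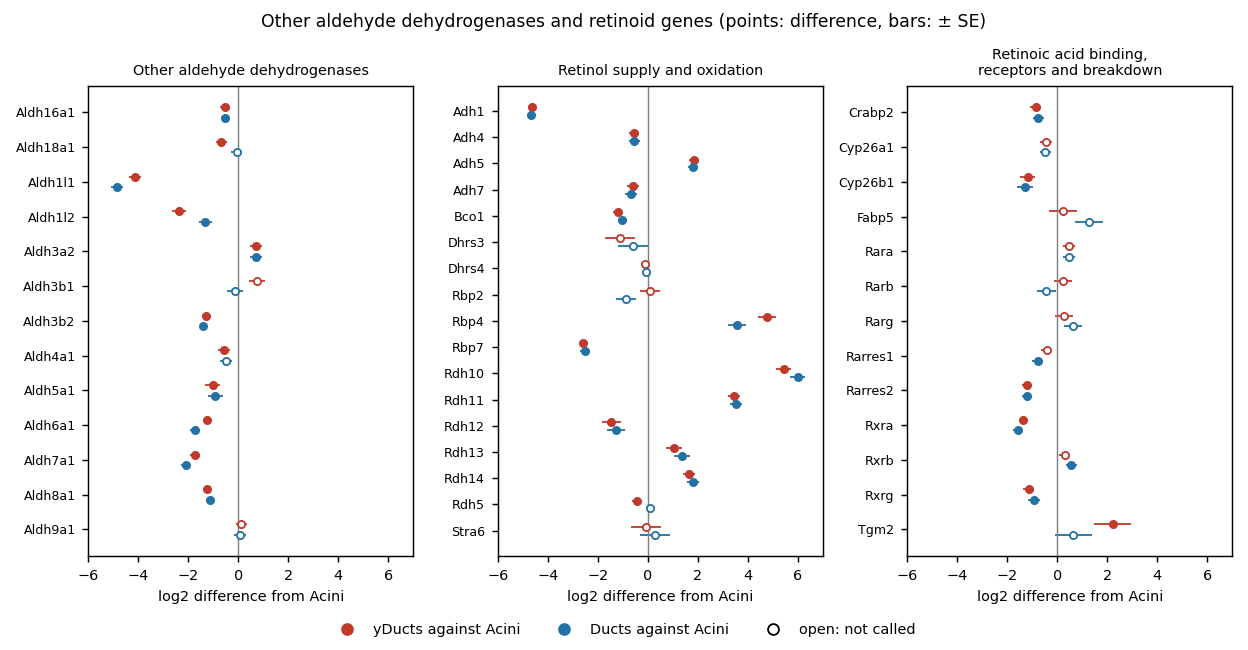
log2 difference from Acini (horizontal axis) of tested genes of 3 lists, the other aldehyde dehydrogenases, retinol supply and oxidation, and retinoic acid binding, receptors and breakdown, in yDucts (red) and Ducts (blue), with bars of ± SE. Filled points passed an adjusted p under 0.05. Most other aldehyde dehydrogenases lie left of 0, and Rdh10, Rbp4 and Rdh11 lie furthest right while Adh1 and Aldh1l1 lie furthest left.

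Aldh3a1 is a target of the aryl hydrocarbon receptor, and the genes of that pathway and of NRF2 were read beside it. Of 16 tested, 7 were called higher and 3 lower in yDucts, and 9 higher and 2 lower in Ducts, against Acini. Over all tested genes, 43.4% were called higher and 32.3% lower in yDucts, and 42.4% higher and 32.9% lower in Ducts. The receptor gene Ahr was 32.4-fold higher in yDucts and 18.0-fold higher in Ducts, and its target Cyp1b1 was 10.7-fold higher in yDucts and 8.17-fold higher in Ducts. Ahr read 10.86 and 10.82 on Ducts A and B and 8.78 and 8.58 on C and D. Without Ducts A and B, Ahr was higher in yDucts than in Ducts by 1.93 (adjusted p = 0.00655). Its best known target, Cyp1a1, went the other way, at least 5.87-fold lower in yDucts and at least 5.81-fold lower in Ducts, as did Tiparp (-1.40 in yDucts and -0.97 in Ducts). Nfe2l2, which encodes NRF2, was higher by 3.60 in yDucts and 3.42 in Ducts, Gsta4, which conjugates the lipid aldehyde 4-hydroxynonenal, by 8.07 in yDucts and 7.54 in Ducts, and Txnrd1 by 2.06 in yDucts and 2.58 in Ducts. The glutathione synthesis gene Gclm was higher by 1.16 in yDucts and 1.82 in Ducts, and Gclc (1.12), Hmox1 (1.20) and the cystine transporter Slc7a11 (1.36) passed in Ducts alone of the organoids. After quantile normalization Gclm in yDucts (adjusted p = 0.356) and Gclc (0.347), Hmox1 (0.158) and Slc7a11 (0.259) in Ducts were no longer called. Without Ducts C and D, the Ducts calls of Gclc (adjusted p = 0.0555), Hmox1 (0.189) and Slc7a11 (0.0754) were lost as well. Hmox1 read 5.87 and 6.10 on Ducts A and B and 7.61 and 7.78 on C and D. Gclc was called higher in yDucts than in Acini without Ducts A (0.52, adjusted p = 0.0279). Nqo1 was at least 4.17-fold higher in yDucts (adjusted p = 0.00151) and did not pass in Ducts (adjusted p = 0.0596), although it did after quantile normalization (0.015) and without Ducts A (0.0162).

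Among 8 tested genes that handle aldehydes outside the family, 5 were called higher and 3 lower in yDucts, and 3 higher and 3 lower in Ducts. Over all tested genes, 43.4% were called higher and 32.3% lower in yDucts, and 42.4% higher and 32.9% lower in Ducts. The reductases Akr1b8 (4.99 in yDucts and 5.46 in Ducts) and Cbr3 (4.89 in yDucts and 5.01 in Ducts) were higher, and Adhfe1 was lower (-2.44 in yDucts and -3.18 in Ducts), as were Akr7a5 (-0.98 in yDucts and -1.37 in Ducts) and Aoc1 (-1.03 in yDucts and -1.01 in Ducts). Cbr1 was higher by 1.05 in yDucts and 1.18 in Ducts, calls that were lost after quantile normalization (adjusted p = 0.672 and 0.469). Aox1, an aldehyde oxidase that can also turn retinal into retinoic acid, was the only gene of the 5 lists called between the organoids. It read 5.88, 4.87, 5.41 and 5.0 in yDucts, 2.92, 2.96, 3.19 and 3.07 in Ducts, and 3.59, 3.43, 3.29 and 2.87 in Acini, and was thus above the low range in yDucts alone of the 3 groups. Like Aldh1a3, it was higher in yDucts than in Acini, at least 2.97-fold, and at least 4.23-fold higher than in Ducts (fitted difference 2.26, adjusted p = 9.25e-05).

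The genes whose level over the 12 arrays was most like that of each member were sought among 14989 others, by the root mean square difference of profiles centred on their means. For Aldh1a1 they were Tspan13 (0.28), Ttc39a (0.31) and C1qtnf12 (0.34), where the profile of Aldh1a1 itself had a root mean square of 1.41. For Aldh1a7 they were 4930415O20Rik (0.77), Slc12a8 (0.80) and Elapor1 (0.86), against 2.75 for the gene itself. For Aldh1a3 they were Ces2g (0.42), Rnf186 (0.43) and Blnk (0.48), against 1.45. For Aldh2 they were Dstn (0.14), Nit1 (0.15) and Ugp2 (0.17), against 0.75. Aldh1a2 (Ovol1, Prkch and Cidea, 0.41 to 0.47, against 0.94) and Aldh3a1 (Nlrp10, Lemd1 and Samd9l, 0.58 to 0.77, against 1.61) had looser neighbours.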

How the data were processed

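The deposited table of the authors holds 1 log2 value for each probe set on each array. The submitters' processing notes name RMA, which adjusts background, quantile normalizes probe intensities and summarises probes by median polish. Neither its version nor whether the 12 arrays were normalized together is given in the sources used here. With this scaling each value is relative to its array. By the platform annotation 34958 probe sets had 1 gene symbol, 932 several and 9211 none.

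Probe sets above the 30th percentile of their array on at least 4 arrays were tested (33436, without the 64 control probe sets) with limma 3.58.1 in R 4.3.3, fitting the 3 group means to the 12 arrays at once, with variances moderated across probe sets (residual degrees of freedom 9, prior 4.19), two-sided, with Benjamini-Hochberg adjustment over all tested probe sets and a threshold of 0.05. The fit was tested on simulated data. Differences carry the SE of the model, levels the SD of 4 arrays. A group mean below the 30th percentile was raised to it, array by array, and the fold written as "at least". The number of arrays limits the precision. A listed gene was taken at its probe set with the highest mean over all arrays, and could be named by value if called with a difference of at least 1 or if it was an aldehyde dehydrogenase. Aldh1a2, Adh1 and Aldh1a3 without Ducts A and B, near the low range, were bounded the same way. Members and lists were chosen with earlier results of these data known. Alternatives were other scalings, filters, units of the fit, array weights, the replicate letter as a block, and leaving out arrays. Promoter windows came from RefSeq (GRCm38.p6).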

Additional observations from a re-analysis of the deposited data

Results flagged for a closer look

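Among the 13 probe sets and 3 groups, 5 of 39 groups of 4 arrays had 1 array far from the others. That array's gap to the nearest one took up most of the group's range by Dixon's criterion. Chance alone marks about 1 group in 20, but the 39 groups share the same arrays, and some share a gene. Over all 33436 tested probe sets, Ducts B was more than 1 log2 unit above every other Ducts array at 611. yDucts B was as far below every other yDucts array at 338. The share flagged by Dixon's criterion over all tested probe sets was not counted, so the 5 cannot be read as an excess particular to these genes. Aldh1a1 read 5.77 on yDucts B, against 6.95 to 7.12 on the other yDucts arrays. Aldh1a2 read 5.34 on Acini B, against 4.18 to 4.37 on the other Acini arrays, and on that array the stromal markers averaged 7.55, against 6.84 to 7.29 on the others, and the mesothelial markers 5.16, within their range of 5.08 to 5.28. The part of these cells was not tested. The other 3 were on Ducts B. Aldh1a7 read 8.24 there, against 4.33 at most on the other Ducts arrays, Aldh2 read 8.13 at probe set 1434987_at, against 7.28 to 7.39, and Aldh2 read 10.33 at probe set 1448143_at, against 9.51 to 9.61.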

How the results depend on the processing

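Of 17 called differences of the 13 probe sets, 10 stayed called under every one of the alternatives run: those of Aldh1a1 and Aldh1a7 and of Aldh2 at 1434987_at and 1434988_x_at against Acini in both organoids, Aldh2 at 1437410_at in Ducts and Aldh1a3 at 1448789_at in yDucts. The count called higher in Ducts against Acini was 3 under cyclic loess, 2 of 7 with 1 probe set per gene and 2 of 6 with a gene's probe sets averaged. In yDucts against Acini it was 3 in each of these 2 fits by gene, which test fewer features. In yDucts against Ducts, 6 were called higher with array weights, 0 to 2 when 1 array was left out (2 without Ducts replicate B), and 2 without Ducts A and B. With Ducts A and B left out, 4 were called lower in Ducts against Acini, and with Ducts C and D left out, 1 was called lower in yDucts against Ducts and Aldh1a2 turned to 1.0 above Acini in Ducts. These 2 settings were added after the data were seen. The causes of the changes between scalings and weights were not tested. The median of all tested probe sets, 0.13 in yDucts and 0.16 in Ducts against Acini, was -0.01 in yDucts and 0.00 in Ducts after quantile normalization and 0.35 in yDucts and 0.37 in Ducts with arrays centred on their medians. With the replicate letter as a replicate block, the counts stayed at 7 higher and 3 lower in yDucts against Acini, 5 higher and 2 lower in Ducts against Acini, and 0 in yDucts against Ducts, and no member call changed. The labels give same-lettered arrays no link beyond the letter. Deviations of yDucts and Ducts correlated at 0.11, -0.30, -0.30 and 0.07 for A to D, and those of either with Acini at -0.03 to 0.03. With so few arrays, these values cannot tell whether same-lettered arrays shared an animal or a batch.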
